A study of Homo sapiens with 38 samples.

Results

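Pools of density gradient fractions 6 and 7 (gradient 6_7, libraries A to D) were compared with small extracellular vesicles (sEV) pelleted by ultracentrifugation (libraries A to C). These 7 of the 38 libraries of the study were taken by their labels. Both preparations came from medium of DiFi cells, a human colorectal cancer cell line, grown in 3D, that is in hollow-fibre bioreactors in which cells sit around fibres perfused with medium. Medium was cleared of debris and passed through a 0.22 µm filter, pooled, and split into aliquots of 60 mL. For gradient 6_7, an aliquot was spun at 10000 g, concentrated onto a cushion of 60% iodixanol at 100000 g and then separated by buoyant density. For sEV, the medium was spun at 167000 g for 4 h and the pellet was resuspended and spun again. The comparison therefore sets density-purified against pelleted material of the same culture. The labels name 3 kinds of gradient material (light EV, heavy EV and non-vesicular) without saying which of them fractions 6 and 7 hold, and the replicate letters are not tied to the 4 medium pools. RNA was demethylated with AlkB, which clears methyl groups from tRNA bases that would block the reverse transcriptase, before small RNA libraries were made. The deposited table gives expected counts for 22549 features in 10 RNA classes, of which 7009 had enough counts to be tested.

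Small RNAs outside cells travel inside vesicles and in protein complexes, and both can be collected by pelleting, while a density gradient parts lipid-bound particles from denser complexes. miRNAs are short guides whose seed bases pair with messenger RNAs to repress them. Y RNAs are bound by the Ro60 protein, vault RNAs by the vault ribonucleoprotein particle, and 7SL RNA is the scaffold of the signal recognition particle. Most U RNAs (snRNAs) form parts of the spliceosomes. Small nucleolar RNAs (snoRNAs) guide rRNA modification or cleavage in the nucleolus. tRNAs are cut by ribonucleases into long 5′ or 3′ pieces and shorter fragments, which are common in extracellular RNA.

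The sequences below carry the largest contrasts between the preparations or show how related entries differ. Mature miRNAs are from RefSeq (GRCh38.p14) with the seed, bases 2 to 8, in capitals. Both arms of the miR-130b hairpin and members of 3 seed groups are shown, with miR-1246, whose letters recur inside U2 snRNA.
hsa-miR-130b-5p: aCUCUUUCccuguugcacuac
hsa-miR-130b-3p: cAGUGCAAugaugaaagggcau
hsa-miR-320b: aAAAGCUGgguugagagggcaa
hsa-miR-320c: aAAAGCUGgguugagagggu
hsa-miR-320d: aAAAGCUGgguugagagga
hsa-miR-378a-3p: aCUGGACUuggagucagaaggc
hsa-miR-378c: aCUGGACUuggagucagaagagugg
hsa-miR-29b-3p: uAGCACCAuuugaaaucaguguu
hsa-miR-29c-3p: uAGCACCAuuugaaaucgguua
hsa-miR-1246: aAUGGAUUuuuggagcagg
The miR-130b arms lie at chr22:21653316-21653336 and chr22:21653354-21653375 on the + strand, and miR-1246 lies at chr2:176601024-176601042 on the - strand.

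For nuclear tRNAs the deposited table holds the letters (GRCh38.p13, first locus listed), shown here with the anticodon in capitals for entries whose level or class share is described below.
tRNA-Glu-TTC: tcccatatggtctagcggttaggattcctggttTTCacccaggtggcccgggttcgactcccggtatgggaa
tRNA-Gly-GCC: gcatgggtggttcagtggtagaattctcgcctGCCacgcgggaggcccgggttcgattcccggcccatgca
tRNA-Ile-GAT: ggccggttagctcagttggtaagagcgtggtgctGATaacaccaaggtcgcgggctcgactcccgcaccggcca
tRNA-iMet-CAT: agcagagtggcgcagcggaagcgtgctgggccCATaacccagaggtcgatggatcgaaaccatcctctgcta
These loci are chr2:130337128-130337199 (-), chr1:161443304-161443374 (+), chrX:3838377-3838450 (-) and chr1:153671250-153671321 (+).

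Y RNA and snRNA sequences are from GENCODE 29 (GRCh38). RNY4 is shown with 3 genomic copies that had nearly its count in sEV but not in gradient 6_7, and with a copy that was higher in gradient 6_7. Capitals mark the bases of each copy that differ from RNY4.
RNY4: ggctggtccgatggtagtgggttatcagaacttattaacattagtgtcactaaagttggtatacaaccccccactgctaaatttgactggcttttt
RNY4P10: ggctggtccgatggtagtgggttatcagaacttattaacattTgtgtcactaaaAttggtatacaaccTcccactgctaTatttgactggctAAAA
Y_RNA ENSG00000201778: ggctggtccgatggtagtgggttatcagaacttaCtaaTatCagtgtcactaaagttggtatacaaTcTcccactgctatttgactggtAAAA
RNY4P7: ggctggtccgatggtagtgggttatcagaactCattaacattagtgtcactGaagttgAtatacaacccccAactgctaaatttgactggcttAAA
Y_RNA ENSG00000200615: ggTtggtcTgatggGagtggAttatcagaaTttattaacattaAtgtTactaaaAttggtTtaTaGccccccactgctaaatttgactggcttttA
RNY4 lies at chr7:148963315-148963410 (+) and the copies at chr6:33199601-33199696 (+), chr3:157153548-157153640 (+), chr2:127798903-127798998 (-) and chr11:33004250-33004345 (-). The first 42, 34 and 32 bases of RNY4P10, ENSG00000201778 and RNY4P7 are those of RNY4, whereas ENSG00000200615 shares only the first 2 before its first difference.

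Among the snRNAs, RNU2-1 and RNU2-2P are shown because their order by level was opposite in the preparations, with the bases of RNU2-2P that differ from RNU2-1 in capitals. RNU7-1 is shown because 9 of 14 U7 entries fell in gradient 6_7, with the Sm protein binding letters of U7 in capitals.
RNU2-1: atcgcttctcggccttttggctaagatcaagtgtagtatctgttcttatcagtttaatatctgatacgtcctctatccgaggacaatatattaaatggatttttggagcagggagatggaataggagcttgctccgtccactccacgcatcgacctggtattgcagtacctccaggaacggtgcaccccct
RNU2-2P: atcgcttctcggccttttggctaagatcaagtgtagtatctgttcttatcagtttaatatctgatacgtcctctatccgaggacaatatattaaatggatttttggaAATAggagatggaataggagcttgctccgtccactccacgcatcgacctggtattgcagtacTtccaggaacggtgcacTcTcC
RNU7-1: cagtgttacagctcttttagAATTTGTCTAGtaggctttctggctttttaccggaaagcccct
RNU2-1 is listed at 11 loci, the first at chr17:43233787-43233977 (-), RNU2-2P lies at chr11:62841619-62841809 (-) and RNU7-1 at chr12:6943816-6943878 (+). The U2 entries are 95.8% identical over 191 bases and share the first 107. The Sm letters AATTTGTCTAG were found in 12 of 14 tested U7 entries and in 0 of 259 other tested snRNA entries, with 0 matches on the other strand.

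Total counts were 940808, 1891999, 1288383 and 3860718 in gradient 6_7 A to D and 3661132, 4146361 and 2889572 in sEV A to C. The number of features with a count was 2024, 2501, 1919 and 2910 in gradient 6_7 A to D, against 4841, 7150 and 6544 in sEV A to C. Gradient 6_7 D, with more counts than sEV A or C, still had fewer features than either. The labelled origin was checked with marker miRNAs. All 8 of 8 epithelial markers (the miR-200 family of epithelia in general, with the intestinal miR-192, miR-194 and miR-215) exceeded 10 CPM (counts scaled to a library total of 1000000) in every library. They summed to 66662 to 149037 CPM in gradient 6_7 and 53269 to 102725 CPM in sEV. Red blood cell markers summed to at most 2.13 CPM in gradient 6_7 and 3.28 CPM in sEV. The myeloid, endothelial and liver lists held 1 miRNA each. The myeloid miR-223-3p was at 0 in gradient 6_7 and at most 0.346 CPM in sEV, and miR-122-5p of liver and serum reached 8.50 CPM in gradient 6_7 and 15.6 CPM in sEV. Endothelial miR-126-3p ranged over 10.0 to 34.0 CPM in gradient 6_7 and 13.7 to 18.6 CPM in sEV. The 5 muscle and mesenchyme miRNAs summed to 16.9 to 73.7 CPM in gradient 6_7 and 21.3 to 51.1 CPM in sEV, with miR-145-5p at 0 in all 7 libraries. Of these, miR-1-3p exceeded 10 CPM in every library, at 10.6 to 65.2 CPM in gradient 6_7 and 14.2 to 49.7 CPM in sEV. Both arms of miR-142, which is on none of these lists, averaged 10 CPM or more over the 7 libraries. In each group a library stood apart. Gradient 6_7 B had an rRNA share of 55.9%, against 7.92 to 26.3% in the other 3 gradient libraries. In its group sEV A had the lowest tRNA and Y RNA shares and an RNU12 level of 83564 CPM, against 8817 and 3722 CPM in sEV B and C. Counts are given below with and without these 2 libraries. Counts from a fixed sequencing depth are relative, so fewer particles carrying an RNA and less of it per particle cannot be told apart.

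At the level of RNA classes, gradient 6_7 was made up mostly of miRNA, rRNA and tRNA, while sEV held more Y RNA, snRNA and miscellaneous RNA (misc_RNA). The share of 6 classes, Y RNA, snRNA, misc_RNA, snoRNA, endogenous retrovirus (ERV) RNA and mitochondrial tRNA, was smaller in every gradient 6_7 library than in any sEV library.
Y RNA was 4.04, 1.52, 4.36 and 4.55% of counts in gradient 6_7 A to D, against 13.4, 23.6 and 24.3% in sEV A to C, a mean 5.65 times higher in sEV. snRNA was 0.646, 1.41, 0.534 and 0.530% in gradient 6_7 and 13.7, 7.70 and 6.11% in sEV, 11.8 times higher in sEV. misc_RNA, which holds vault, 7SL and 7SK RNA, was 0.222, 0.101, 0.228 and 0.217% in gradient 6_7, against 3.45, 6.79 and 7.92% in sEV, 31.5 times higher in sEV and the class with the highest ratio of means, although in percentage points Y RNA differed more (-16.8 against -5.86). snoRNA was 0.0828, 0.115, 0.0999 and 0.0905% in gradient 6_7, against 2.30, 1.86 and 1.44% in sEV (19.3 times higher in sEV). ERV RNA averaged 0.0344 ± 0.00605% in gradient 6_7 and 0.175 ± 0.0477% in sEV, and mitochondrial tRNA 0.0163 ± 0.00849% in gradient 6_7 and 0.124 ± 0.0799% in sEV (SD, n = 4 and 3). For each of these 6 classes the exact permutation test over 35 assignments gave p = 0.0286, the smallest it can give, and adjusted p = 0.0476 over the 10 classes. All 6 differences kept their sign without sEV A and gradient 6_7 B, at -19.6 percentage points for Y RNA, -6.34 for snRNA and -7.13 for misc_RNA, a design too small for the test to pass.

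**Figure D1:**
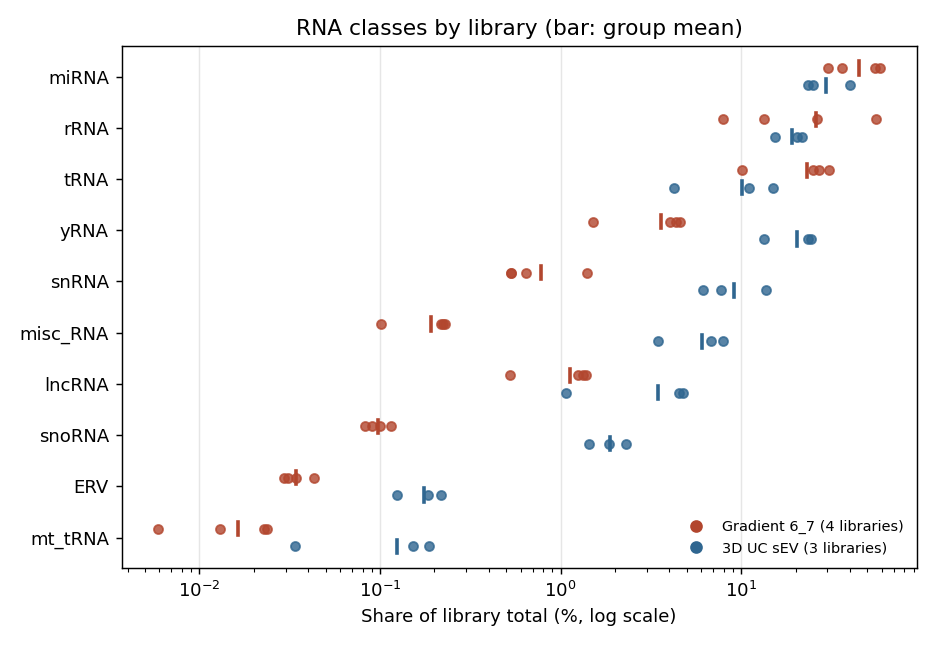
RNA classes as a share of the library total (%, log scale) in gradient 6_7 (4 libraries, red) and 3D UC sEV (3 libraries, blue); points are libraries and bars are group means. Y RNA, snRNA, misc_RNA, snoRNA, ERV RNA and mitochondrial tRNA points of gradient 6_7 all lie left of the sEV points, while miRNA, rRNA, tRNA and lncRNA points overlap.

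The remaining 4 classes overlapped between the groups. miRNA made up 59.0, 30.4, 36.4 and 54.8% of counts in gradient 6_7, against 39.9, 23.4 and 24.9% in sEV, and did not pass (exact permutation adjusted p = 0.190). rRNA, at 7.92, 55.9, 26.3 and 13.4% in gradient 6_7 and 21.8, 20.4 and 15.4% in sEV, varied more within gradient 6_7 than between the groups (exact permutation adjusted p = 0.800), and its mean difference of 6.68 points turned to -2.01 without sEV A and gradient 6_7 B. tRNA was 26.8, 10.1, 30.7 and 24.9% in gradient 6_7 and 4.27, 11.1 and 15.1% in sEV, where only gradient 6_7 B lay within the sEV range (exact permutation adjusted p = 0.143). With rRNA left out of the total the tRNA difference was 18.2 points and passed (exact permutation adjusted p = 0.0367). Long noncoding RNA (lncRNA) took 1.24, 0.523, 1.39 and 1.33% in gradient 6_7, against 1.07, 4.75 and 4.4998% in sEV (exact permutation adjusted p = 0.143).

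Across single features, most changes were losses in gradient 6_7. edgeR's quasi-likelihood test on the whole table, with a Benjamini-Hochberg adjusted p below 0.05, called 540 of 7009 tested features (7.70%), 23 higher (0.328%) and 517 lower (7.38%) in gradient 6_7. It called 378 without sEV A and gradient 6_7 B. The split was 37 higher and 191 lower with RLE scaling, from which a near-empty library of another group was left out. Fitted on these 7 libraries alone, edgeR called 171 higher and 808 lower and DESeq2 196 higher and 671 lower. Of the tested features, 4198 had no count in 1 or both of the groups, and 5976 had a rounded count in at least 1 of these 7 libraries. The median log2 fold change over all tested features was -3.05. It was -1.01 with a group at 0 set to the bound that 3 counts give. Features at or under 3 counts in both groups were left out of the medians with bounds. Without bounds the median was -2.42 on library totals, -1.62 with RLE scaling and -1.61 with DESeq2. Every fold change below is therefore relative to a shifted whole. To remove the class differences, the same features were fitted with the class total as the reference, so that a fold change is one of shares within a class. This called 235 features (3.35%), 140 higher (2.00%) and 95 lower (1.36%), and 150 without the 2 libraries, with a median of -1.52 (0.57 with bounds). On these 7 libraries alone, the class totals gave 335 higher and 185 lower. TMM within the class, which follows the bulk of a class rather than its total and was also fitted on the 7 libraries, gave 153 higher and 563 lower. Both fits called 94 of the features. A single library moved these counts by more than 1.5 times: the whole-library count was 325 without sEV B and 306, 288 and 272 without gradient 6_7 A, C and D, and the within-class count was 95 without sEV B and 101 without sEV C. Below, the first is the whole-library fit and the second the within-class fit, log2 fold changes are gradient 6_7 over sEV with their SE, and CPM and shares rest on totals whereas whole-library fold changes rest on TMM scaling.

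Among tRNAs, tRNA-Glu-CTC and tRNA-Ile-GAT rose in both fits, while most other called tRNAs fell as a share of the class. Of 49 nuclear tRNAs tested, 2 were higher and 8 lower in the whole-library fit (median -0.86), but 3 higher and 2 lower on library totals and 4 and 0 with RLE scaling. In the within-class fit 2 were higher and 19 lower (median -1.70), but 7 higher and 18 lower with TMM within the class (median -0.36). tRNA-Glu-CTC, which reads a glutamate codon and is a known source of stable 5′ tRNA fragments, had 62399, 20281, 77369 and 65064 CPM in gradient 6_7 A to D, against 565, 3266 and 4679 CPM in sEV A to C (log2 fold change 4.27 ± 0.86, adjusted p = 6.05e-05). All 4 gradient libraries lay above all 3 sEV libraries. It was 23.7 ± 2.64% of tRNA counts in gradient 6_7 and 2.46 ± 0.984% in sEV (SD, n = 4 and 3; within-class log2 fold change 3.27 ± 0.54, adjusted p = 2.62e-06). tRNA-Glu-TTC, the other glutamate tRNA, had 7972, 2989.8, 8787 and 7589 CPM in gradient 6_7, against 959, 9775 and 11451 CPM in sEV and did not pass in either fit (adjusted p = 1.00 and 0.361). The ratio of Glu-CTC to Glu-TTC counts was 7.83, 6.78, 8.81 and 8.57 in gradient 6_7 and 0.590, 0.334 and 0.409 in sEV, with no overlap.

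tRNA-Ile-GAT, a rare isoleucine tRNA listed at 3 loci, had 3069, 2067, 2735 and 1516 CPM in gradient 6_7, against 10.4, 6.70 and 8.24 CPM in sEV (log2 fold change 8.10 ± 1.14, adjusted p = 1.21e-09). It was the highest fold change among features that averaged 50 CPM or more and had a count in each sEV library. Its within-class call (log2 fold change 6.65 ± 1.56, adjusted p = 0.0109) ended without sEV B or C (adjusted p = 0.11 each). tRNA-Gly-GCC, the tRNA entry with the highest count and another source of such fragments, had 119200, 38053, 123768 and 97259.7 CPM in gradient 6_7 and 21571, 18934 and 18039 CPM in sEV. The groups did not overlap, but it missed the threshold (log2 fold change 2.15 ± 0.75, adjusted p = 0.0514), and its share of tRNA counts did not pass either (adjusted p = 0.590). tRNA-Asp-GTC had 30311, 17172, 55742 and 44918 CPM in gradient 6_7, against 9286, 31164 and 36176 CPM in sEV, with overlap. The 9 tRNAs known for 5′ fragments together made up 88.5, 84.9, 92.9 and 92.3% of tRNA counts in gradient 6_7 A to D, against 87.7, 69.7 and 59.4% in sEV A to C, and 1 of 9 was higher and 0 lower in the whole-library fit.

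Initiator tRNA-iMet-CAT, which starts translation, was 0.0682 ± 0.0171% of tRNA counts in gradient 6_7 and 2.26 ± 1.74% in sEV (within-class log2 fold change -5.05 ± 0.75, adjusted p = 2.71e-07). Its level was 181, 90.2, 146 and 171 CPM in gradient 6_7 and 135, 3077 and 5558 CPM in sEV, so that sEV A lay inside the gradient range and the other sEV libraries far above it. The whole-library call ended with these 2 groups fitted alone (adjusted p = 0.07) or RLE scaling (0.17). Elongator tRNA-Met-CAT, tRNA-Asn-GTT and tRNA-Trp-CCA moved the same way within the class, with log2 fold changes of -4.74, -4.26 and -4.22 (adjusted p = 6.83e-08, 2.62e-06 and 2.16e-05; the last 2 were chosen after their values were seen). tRNA-Val-CAC and tRNA-Val-AAC, 2 further sources of 5′ fragments, fell within the class (-1.89 and -2.06, adjusted p = 0.0378 and 0.0233), and both calls ended without sEV B, sEV C, or gradient 6_7 A, C or D, or with TMM within the class.

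miRNA profiles were close in the preparations. Over 505 tested miRNAs, Spearman's rho of CPM was 0.815 to 0.877 between a gradient 6_7 and an sEV library, against 0.903 to 0.938 among gradient libraries and 0.917 to 0.956 among sEV libraries, which describes these libraries across features that share a depth. In the whole-library fit 5 were higher (miR-130b-5p, miR-23b-5p and miR-3615, with miR-296-5p and miR-1306-5p chosen after their values were seen) and 22 lower (median 0.22), and within the class the first 3 of these were higher and 31 lower (median -0.30). RLE scaling gave 16 higher and 11 lower. miR-21-5p, the miRNA with the highest mean count and a widely studied cancer miRNA, had 83228, 37121, 48273 and 78054 CPM in gradient 6_7 and 62817, 38337 and 39742 CPM in sEV (log2 fold change 0.33 ± 0.69, adjusted p = 0.835). Levels of miR-200b-3p, which helps keep cells epithelial, were 48064, 20784, 30385 and 46726 CPM in gradient 6_7, against 22399.8, 10926 and 12867 CPM in sEV (adjusted p = 0.285). Neither passed, and the ranges overlapped.

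No miRNA of the let-7, miR-200, intestinal or miR-17-92 lists passed. In the whole-library fit 0 of 17 let-7 members, 0 of 9 miR-200 members, 0 of 6 intestinal miRNAs and 0 of 21 members of miR-17-92 and its paralogs passed, with medians of 0.82, 0.84, 0.06 and 0.37 beside the median of 0.22 over the miRNA class. Within the class 0 of these passed. With DESeq2 on the 7 libraries, 6 let-7, 3 miR-200 and 1 of the intestinal miRNAs were higher, and 4 of miR-17-92 were higher and 1 lower. RLE scaling called 1 let-7, 3 miR-200 and 1 miR-17-92 member higher. let-7a-5p had 20661, 7417, 12494 and 19754 CPM in gradient 6_7 and 10534, 5429 and 5851 CPM in sEV, and miR-92a-3p of the miR-17-92 cluster had 32133, 8435, 20398 and 29715 CPM in gradient 6_7, against 5720.4, 8187 and 9129 CPM in sEV. Among the intestinal miRNAs, miR-192-5p had 32961, 13512, 20585 and 30395 CPM in gradient 6_7 and 21391, 12409.6 and 13726 CPM in sEV. miR-200c-3p (16993, 7929.7, 11933 and 16935 CPM in gradient 6_7 and 6421, 4813 and 5841 CPM in sEV) and miR-10b-5p (6.38, 4.76, 6.99 and 8.55 CPM in gradient 6_7 and 3.14, 3.62 and 3.46 CPM in sEV) were higher in each gradient library than in any sEV library without passing (adjusted p = 0.287 and 0.564). Further miRNAs of the fixed set did not pass. miR-125b-5p averaged 398 ± 161 CPM in gradient 6_7 and 160 ± 83.4 CPM in sEV. The hypoxia-induced miR-210-3p averaged 56.0 ± 21.1 CPM in gradient 6_7 and 93.3 ± 23.3 CPM in sEV, and miR-100-5p averaged 2.14 ± 2.18 CPM in gradient 6_7 and 0.357 ± 0.295 CPM in sEV (SD, n = 4 and 3). miR-122-5p and the red-cell miR-451a did not pass either (adjusted p = 0.277 and 0.953).

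The arms of miR-130b, a hairpin whose 3p arm belongs to the seed family of miR-301a, differed in opposite directions. miR-130b-3p had 30.8, 20.6, 23.3 and 20.98 CPM in gradient 6_7, against 299.6, 338 and 321 CPM in sEV (log2 fold change -3.72 ± 0.81, adjusted p = 0.000347; within-class log2 fold change -4.39 ± 0.58, adjusted p = 9.28e-10). miR-130b-5p had 286, 105, 168 and 225 CPM in gradient 6_7, against 23.8, 1.93 and 4.85 CPM in sEV (log2 fold change 4.09 ± 1.05, adjusted p = 0.00408). Its whole-library call ended without sEV B (adjusted p = 0.068) or C (0.052) and its within-class call too (0.103 and 0.0713). Neither arm overlapped between the groups. The 5p to 3p ratio was 9.28, 5.10, 7.20 and 10.7 in gradient 6_7 A to D and 0.0793, 0.00571 and 0.0151 in sEV A to C. In 52 hairpins both arms averaged 10 CPM or more over the 7 libraries and had a count in each library. Among these, the change of the log2 5p to 3p ratio, gradient 6_7 minus sEV, had a median of 0.03 and quartiles of -0.58 and 0.82. miR-130b stood at 8.68, the next highest was miR-10a at 4.26 and the lowest was miR-1307 at -4.27. In miR-10a the minor 3p arm fell, with 168, 52.9, 90.0 and 129 CPM in gradient 6_7 and 442, 774 and 642 CPM in sEV (within-class log2 fold change -3.31 ± 0.60, adjusted p = 2.28e-05). Its 5p arm had 19869, 9059.7, 13035 and 19908 CPM in gradient 6_7, against 6789, 3599 and 3972 CPM in sEV (adjusted p = 0.326).

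**Figure D2:**
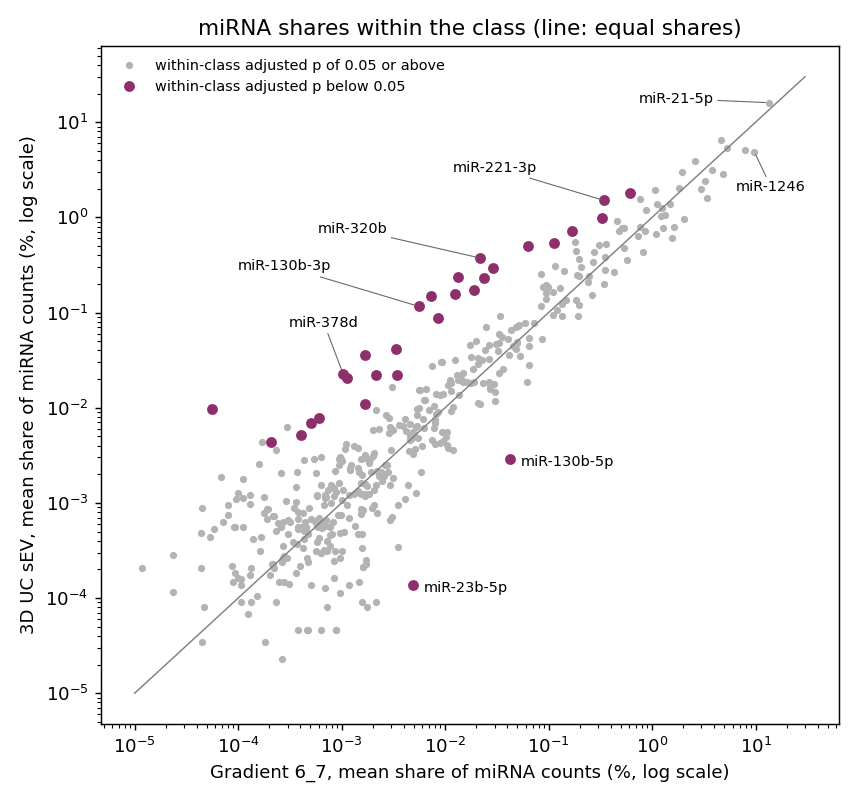
Mean share of miRNA counts (%, log scale on both axes) in gradient 6_7 (horizontal) and 3D UC sEV (vertical) for 461 miRNAs with a count in both groups; purple points had a within-class adjusted p below 0.05 (29 drawn) and the line marks equal shares. Abundant miRNAs lie along the line, most purple points lie above it, and miR-130b-5p and miR-23b-5p lie below it.

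Several miRNAs that fell share a seed. miR-320b, miR-320c and miR-320d, with the seed AAAGCUG, were -4.09 ± 0.51, -4.13 ± 0.53 and -4.37 ± 0.55 (log2, SE) within the class (adjusted p = 3.62e-10, 6.83e-10 and 3.62e-10). The highest of them, miR-320b, had 111, 56.4, 93.1 and 135 CPM in gradient 6_7 and 616, 1167 and 1162 CPM in sEV. These calls held with each library left out. Seeds were read for the 455 of 505 tested miRNAs with a RefSeq sequence, miR-378d not among them. Of 4 with the seed AAAGCUG, miR-4429 was not called. Of 3 with the seed CUGGACU, miR-378a-3p and miR-378c fell (-3.01 and -4.39, adjusted p = 0.000496 and 0.000111) and miR-378f was not called. Of 3 with AGCACCA, miR-29b-3p and miR-29c-3p, which target collagen messages, fell (-3.34 and -3.67, adjusted p = 2.43e-05 and 9.29e-06), while miR-29a-3p was not called (adjusted p = 0.452). miR-29b-3p had 184, 90.2, 84.1 and 176 CPM in gradient 6_7 and 2361, 435 and 254 CPM in sEV, where sEV A was far above the others, and the whole-library calls of miR-29b-3p and miR-29c-3p ended without sEV A (adjusted p = 0.31 and 0.18). The miR-320, miR-378a-3p, miR-378c and miR-29a-3p entries were chosen after their values were seen. The sequences of such miRNAs are near-identical, so reads may be split between them.

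Further miRNAs changed within the class. miR-221-3p had 1738, 908, 1337 and 2254 CPM in gradient 6_7 and 2383, 4385 and 5109.8 CPM in sEV (within-class log2 fold change -2.13 ± 0.50, adjusted p = 0.00264), a call that ended without sEV C (adjusted p = 0.06). Its cluster partner miR-222-3p had 3082, 1264, 2392 and 3066 CPM in gradient 6_7, against 1449.8, 1165 and 1433 CPM in sEV, and did not pass. miR-378d, at 8.397, 3.91, 1.16 and 6.04 CPM in gradient 6_7 and 57.5, 63.4 and 66.2 CPM in sEV, fell in both fits (within-class log2 fold change -4.42 ± 0.94, adjusted p = 0.000557). miR-484 averaged 87.8 ± 34.9 CPM in gradient 6_7 and 450.8 ± 137 CPM in sEV (SD, n = 4 and 3; within-class log2 fold change -3.16 ± 0.55, adjusted p = 7.13e-06; chosen after its values were seen). Of the miR-23, miR-24 and miR-27 list, 1 of 12 passed, the minor arm miR-23b-5p, with 24.4, 6.87, 24.8 and 34.4 CPM in gradient 6_7 and 1.09, 0 and 0.346 CPM in sEV, and its within-class call ended with each of 6 libraries left out. miR-3615 had 46.8, 2.11, 6.99 and 19.7 CPM in gradient 6_7 and 0 counts in sEV, at least 59.4-fold higher against a floor of 3 counts over the group, and its within-class call ended without sEV A, B or C. miR-3609 and miR-627-5p, chosen after their values were seen, had 0 and 2 counts in all of gradient 6_7. In sEV miR-3609 had 18.3, 24.4 and 18.3 CPM and miR-627-5p 28.1, 27.5 and 25.3 CPM. miR-1246, at 35872, 71873, 21040.3 and 17785 CPM in gradient 6_7 and 41024, 6811 and 3827 CPM in sEV, varied widely within both groups (log2 fold change 1.27 ± 1.24, adjusted p = 0.512). Its 19 letters occur in 9 of 45 tested U2 snRNA entries, RNU2-1 among them, so its reads cannot be told apart from fragments of those entries.

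Y RNA changed in make-up as well as in share. The parents RNY1, RNY3 and RNY4 were 32.8, 34.5, 37.9 and 36.1% of Y RNA counts in gradient 6_7 A to D, against 68.6, 53.7 and 52.3% in sEV A to C. RNY1 had 5134, 1970.1, 6532 and 6115 CPM in gradient 6_7, against 81337, 96572 and 95221 CPM in sEV (log2 fold change -4.29 ± 0.72, adjusted p = 6.41e-07), and fell within the class too (log2 fold change -1.79 ± 0.41, adjusted p = 0.00144). That within-class call ended without sEV A and gradient 6_7 B together (adjusted p = 0.066). RNY4 had 7724, 3132, 9490.4 and 9859 CPM in gradient 6_7 and 10393, 29890.3 and 31832 CPM in sEV, without overlap but short of the threshold (log2 fold change -1.70 ± 0.68, adjusted p = 0.103). RNY3, the parent with the lowest count, had 378, 136, 508 and 455 CPM in gradient 6_7, against 221, 159 and 169 CPM in sEV with overlap (log2 fold change 0.90 ± 0.84, adjusted p = 0.472). Its share of the class was 0.999 ± 0.119% in gradient 6_7 and 0.101 ± 0.0556% in sEV (within-class log2 fold change 3.31 ± 0.74, adjusted p = 0.00108, but adjusted p = 0.44 with TMM within the class). The ratio of RNY1 to RNY4 was 0.665, 0.629, 0.688 and 0.620 in gradient 6_7 and 7.83, 3.23 and 2.99 in sEV.

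The 3 RNY4 copies shown above tracked RNY4 almost count for count in sEV and not in gradient 6_7. RNY4P10 had 0.538, 0.534, 0.569 and 0.543 of the RNY4 count in gradient 6_7 A to D, against 0.978, 0.991 and 0.992 in sEV A to C. The ratio for ENSG00000201778 was 0.414, 0.405, 0.430 and 0.403 in gradient 6_7, against 0.968, 0.986 and 0.987 in sEV, and for RNY4P7 0.214, 0.206, 0.235 and 0.198 in gradient 6_7, against 0.905, 0.967 and 0.969 in sEV. For each of the 3 copies all 4 gradient values lay below all 3 sEV values. In gradient 6_7 the 3 ratios stood in the order of the number of first bases shared with RNY4 (42, 34 and 32). Identity over the whole length, at 91.7, 87.5 and 92.7%, did not follow that order. RNY4 and the 3 copies share those first bases and may share reads, so they are not independent measures. RNY4P20, at 0.0229 to 0.0276 of the RNY4 count in gradient 6_7, was not compared with RNY4 by its first bases. In the whole-library fit RNY4P7 (log2 fold change -3.87 ± 0.73, adjusted p = 1.43e-05), ENSG00000201778 (log2 fold change -2.95 ± 0.71, adjusted p = 0.00151), RNY4P10 (log2 fold change -2.55 ± 0.70, adjusted p = 0.00809) and RNY4P20 (log2 fold change -3.93 ± 0.75, adjusted p = 1.86e-05) fell. None of the 4 passed within the class, where RNY4P10 was at 0.04 but at -3.29 with TMM within the class.

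**Figure D3:**
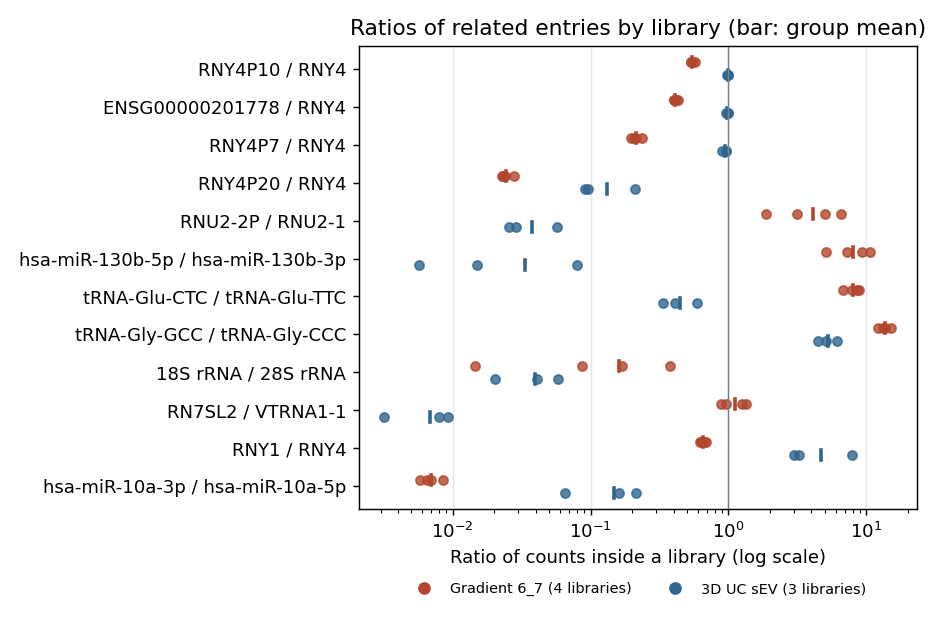
Ratios of counts of related entries inside each library (log scale) in gradient 6_7 (4 libraries, red) and 3D UC sEV (3 libraries, blue), with bars at group means and a line at equal counts. The RNY4 copies RNY4P10, ENSG00000201778 and RNY4P7 lie at or near the line in sEV and left of it in gradient 6_7. RNY4P20 lies left of the line in both groups, further left in gradient 6_7. The RNU2-2P, miR-130b, Glu and 7SL to vault ratios are higher in every gradient library. Only the 18S to 28S ratio overlaps.

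Of the 5 Y RNA copies that were higher in gradient 6_7, 4 are described here, the other being ENSG00000239180 (chosen after its values were seen). Y_RNA ENSG00000200615 had 1828, 646, 1787 and 2113 CPM in gradient 6_7, against 95.7, 58.2 and 63.7 CPM in sEV (log2 fold change 4.35 ± 0.97, adjusted p = 0.000465; within-class log2 fold change 6.75 ± 0.91, adjusted p = 2.76e-09). ENSG00000201279 had 1549.7, 529.8, 1437 and 1689.7 CPM in gradient 6_7, against 89.3, 31.7 and 36.9 CPM in sEV (log2 fold change 4.48 ± 0.98, adjusted p = 0.000355), and both calls held with each library left out. These 2 entries were chosen after their values were seen and are 87.5% and 87.6% identical to RNY4. ENSG00000199409 had 237, 60.3, 27.2 and 34.7 CPM in gradient 6_7 and 0.1 counts in all of sEV, at least 226-fold higher against a floor of 3 counts over the group, with gradient 6_7 A far above the others. RNY4P18 had 242, 91.2, 202 and 264 CPM in gradient 6_7, against 23.5, 17.1 and 20.2 CPM in sEV (within-class log2 fold change 5.67 ± 1.01, adjusted p = 1.37e-05), and its whole-library call ended without sEV A, B or C or gradient 6_7 D. Further copies fell, ENSG00000207292 with 0.319, 0.899, 1.63 and 5.75 CPM in gradient 6_7 and 36.5, 115 and 126.1 CPM in sEV (log2 fold change -5.19 ± 0.97, adjusted p = 1.05e-05), and ENSG00000222579 with 1.1 counts in gradient 6_7 and 1.56, 124 and 114 CPM in sEV.

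Of 274 tested Y RNA copies, 5 were higher and 66 lower in the whole-library fit (median 0.26), while within the class 72 were higher and 1 lower (median of the whole class 2.71). With TMM within the class these counts turned to 29 higher and 90 lower of the 277 Y RNA entries (median -0.28), so the within-class direction of the copies depended on which reference was used. Entries were assigned to the closest of RNY1, RNY3 and RNY4 in sequence, with no cutoff on identity and without RNY5. The 147 nearest to RNY1 had 0 higher and 37 lower in the whole-library fit (median -0.40) and 41 and 2 within the class. The 74 nearest to RNY3 had 1 higher and 0 lower (median 1.41), and 25 and 0 within the class. The 56 nearest to RNY4 had 4 higher and 30 lower (median -2.84), but 7 higher and 0 lower within the class.

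misc_RNA was led by 7SL RNA in gradient 6_7 and was nearly all vault RNA in sEV. Vault RNA made up 32.2, 37.1, 38.3 and 43.6% of the class in gradient 6_7 A to D, against 98.9, 98.2 and 98.3% in sEV A to C, and 7SL RNA 61.4, 57.1, 58.8 and 53.4% in gradient 6_7, against 0.816, 1.46 and 1.28% in sEV. VTRNA1-1, the vault RNA with the highest count, had 425, 218, 508 and 568 CPM in gradient 6_7, against 25734, 52131 and 60609 CPM in sEV (log2 fold change -6.76 ± 0.92, adjusted p = 1.47e-09). None of the alternatives run ended that call. VTRNA1-2 had 144.3, 60.7, 143 and 181 CPM in gradient 6_7, against 6445, 11836 and 14255 CPM in sEV (log2 fold change -6.38 ± 1.48, adjusted p = 0.00556). VTRNA3-1P had 27.95, 19.7, 34.0 and 36.3 CPM in gradient 6_7, against 1438, 1583 and 1666 CPM in sEV (log2 fold change -5.73 ± 0.91, adjusted p = 1.02e-07). VTRNA1-3 was the least reduced, with 111, 65.8, 177 and 150.3 CPM in gradient 6_7 and 474, 1065 and 1319 CPM in sEV (log2 fold change -2.92 ± 0.82, adjusted p = 0.00979), and its call ended without gradient 6_7 A (adjusted p = 0.051) or with RLE scaling (0.178). Of 6 tested vault entries 4 fell and 1 rose, the copy ENSG00000252485, with 3.19, 6.87, 6.21 and 3.11 CPM in gradient 6_7 and 0 counts in sEV (at least 16.1-fold higher, chosen after its values were seen), a call that ended without sEV A, B or C. Within the class VTRNA1-1 fell (log2 fold change -1.76 ± 0.47, adjusted p = 0.0106), and this ended without sEV B (adjusted p = 0.055) or gradient 6_7 A (0.052).

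Parent 7SL RNAs were not called in the whole-library fit. RN7SL2 had 531, 212, 687 and 504 CPM in gradient 6_7 and 82.1, 485 and 484 CPM in sEV (log2 fold change 0.44 ± 0.84, adjusted p = 0.800). RN7SL1 had 198, 92.6, 238 and 228 CPM in gradient 6_7, against 47.8, 210.4 and 218 CPM in sEV (adjusted p = 0.974), and both entries overlapped between the groups. Of 65 tested 7SL entries 3 copies were higher (RN7SL734P, RN7SL471P and ENSG00000278770, chosen after their values were seen) and 1 lower (median 0.90). Within the class 28 were higher and 0 lower (median 5.39, but 0.05 with TMM within the class), with RN7SL2 at 5.57 ± 0.93 (adjusted p = 2.62e-06; -0.18 with TMM within the class). The ratio of RN7SL2 to VTRNA1-1 counts, which no scaling touches, was 1.25, 0.969, 1.35 and 0.888 in gradient 6_7 and 0.00319, 0.00931 and 0.00799 in sEV. The copy RN7SL734P had 63.8, 23.8, 2.33 and 5.00 CPM in gradient 6_7 and 3 counts in all of sEV. 7SK RNA restrains transcription elongation. RN7SK fell and had 35.1, 24.8, 47.3 and 41.7 CPM in gradient 6_7, against 78.9, 639.6 and 488 CPM in sEV (log2 fold change -3.38 ± 0.83, adjusted p = 0.00203), and 4 of 22 tested 7SK entries fell. Telomerase RNA had 5.31, 14.8, 3.10 and 2.59 CPM in gradient 6_7 and 42.6, 44.1 and 35.99 CPM in sEV and did not pass (log2 fold change -2.34 ± 0.93, adjusted p = 0.0979).

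**Figure D4:**
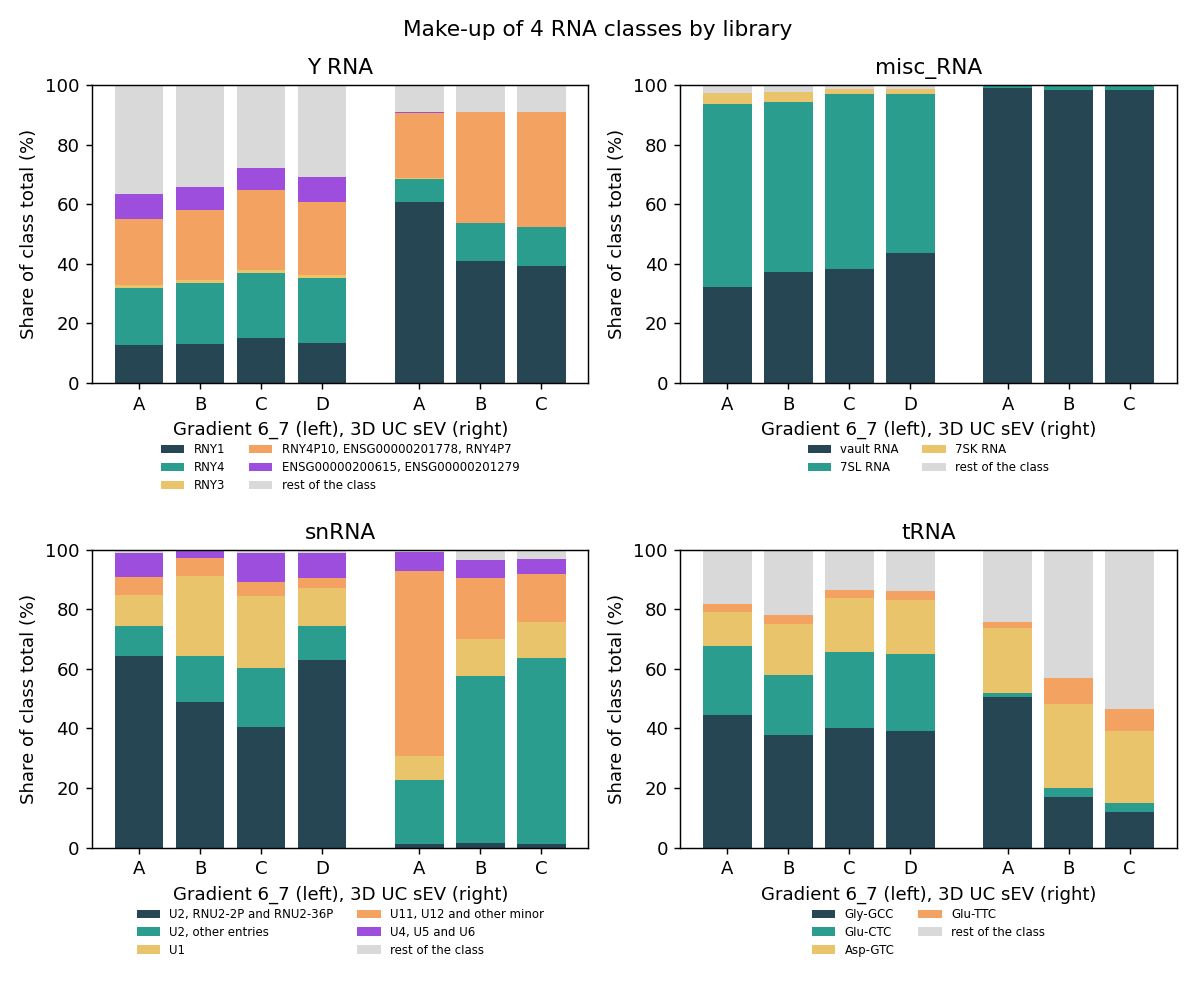
Make-up of the Y RNA, misc_RNA, snRNA and tRNA classes in each library, as stacked shares of the class total (%), with gradient 6_7 A to D left and 3D UC sEV A to C right. RNY1, vault RNA and U2 entries other than RNU2-2P and RNU2-36P take smaller shares in gradient 6_7, while 7SL RNA, RNU2-2P with RNU2-36P, and tRNA-Glu-CTC take larger ones. Minor spliceosome RNAs take most of the snRNA class in sEV A.

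snRNA entries were lower in gradient 6_7 in all 7 families counted, while RNU2-2P and RNU2-36P took a larger share of the class. Of 274 tested snRNA entries 4 copies were higher (RNU1-75P, RNU6-252P, RNU7-92P and another U7 copy, chosen after their values were seen) and 111 lower in the whole-library fit (median -3.25). By family, 23 of 45 U2 entries, 15 of 63 U1, 18 of 29 U4, 6 of 11 U5, 34 of 96 U6, 5 of 15 minor spliceosome and 9 of 14 U7 entries were lower, and 0, 1, 0, 0, 1, 0 and 2 were higher. Many of these are pseudogene copies that may share reads with their parent.
RNU2-1, the U2 snRNA that pairs with the intron branch site, had 318, 1101, 584 and 336 CPM in gradient 6_7, against 15759.7, 20725 and 18013 CPM in sEV (log2 fold change -4.66 ± 0.77, adjusted p = 4.42e-07). RNU2-2P had 2085, 3448, 1090 and 1677 CPM in gradient 6_7, against 905, 600.2 and 462 CPM in sEV, higher in each gradient library and short of the threshold (log2 fold change 1.87 ± 0.82, adjusted p = 0.140). As a share of snRNA counts RNU2-2P was 27.2 ± 5.74% in gradient 6_7 and 0.732 ± 0.0619% in sEV (within-class log2 fold change 5.22 ± 0.88, adjusted p = 4.38e-05). Its ratio to RNU2-1 was 6.55, 3.13, 1.86 and 4.99 in gradient 6_7 and 0.0574, 0.0290 and 0.0256 in sEV. RNU2-36P had nearly the RNU2-2P level in gradient 6_7, 2073, 3436, 1075 and 1658 CPM in gradient 6_7, against 882, 481 and 368 CPM in sEV (within-class log2 fold change 5.44 ± 0.82, adjusted p = 2.06e-06), and is 90.1% identical to it. RNU2-68P went the way of RNU2-1, with 5.42, 16.6, 5.43 and 5.36 CPM in gradient 6_7 and 472, 1361 and 1245 CPM in sEV (log2 fold change -6.63 ± 0.92, adjusted p = 8.43e-10; within-class log2 fold change -3.76 ± 0.71, adjusted p = 0.000140). Within the class 4 U2 entries were higher and 13 lower.

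U7 snRNA, which acts in the 3′ end cleavage of histone pre-messenger RNA, was reduced in 9 of 14 entries. RNU7-1 had 1.59, 1.85, 2.33 and 1.99 CPM in gradient 6_7, against 461, 1035 and 764 CPM in sEV (log2 fold change -8.36 ± 1.04, adjusted p = 2.64e-12), and fell within the class as well (log2 fold change -4.97 ± 0.81, adjusted p = 5.47e-06). The copy RNU7-19P had 2.2 counts in all of gradient 6_7 and 241, 589 and 463 CPM in sEV (adjusted p = 3.73e-14). U1, which pairs with the 5′ splice site, was represented by RNU1-1 at 194.2, 712, 335 and 196 CPM in gradient 6_7 and 2541, 2848 and 2194 CPM in sEV (log2 fold change -2.50 ± 0.77, adjusted p = 0.0229). That call ended without sEV A or B or gradient 6_7 A, C or D, or with these 2 groups fitted alone (adjusted p = 0.145). Of U5, which holds the exon ends, 3 parents fell, RNU5A-1 (log2 fold change -3.94 ± 0.87, adjusted p = 0.000397), RNU5B-1 (log2 fold change -3.41 ± 0.86, adjusted p = 0.00311) and RNU5E-1 (log2 fold change -4.44 ± 0.84, adjusted p = 1.43e-05). The RNU5E-1 call ended with these 2 groups fitted alone (adjusted p = 0.068). RNU6-1 fell as well (log2 fold change -3.81 ± 0.98, adjusted p = 0.00391), while RNU4-1 and RNU4-2 did not pass (adjusted p = 0.290 and 0.119).

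Minor spliceosome RNAs, which splice a small set of introns, were 6.21, 5.94, 4.92 and 3.50% of snRNA counts in gradient 6_7 A to D and 62.0, 20.7 and 16.0% in sEV A to C. RNU12 had 356, 691, 184 and 109 CPM in gradient 6_7, against 83564, 8817 and 3722 CPM in sEV, with sEV A far above its group (log2 fold change -6.41 ± 1.302, adjusted p = 0.00110). The call ended with these 2 groups fitted alone (adjusted p = 0.077). RNU11 had 35.1, 137, 57.4 and 69.7 CPM in gradient 6_7, against 892, 7032 and 6022 CPM in sEV (log2 fold change -5.59 ± 1.63, adjusted p = 0.0318), a call that ended without sEV B or C or gradient 6_7 A, C or D. RNU4ATAC and RNU6ATAC were below 10 CPM in all libraries and did not pass (adjusted p = 0.140 and 0.369).

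snoRNAs of both main types fell. Of 265 tested, 1 was higher and 107 lower in the whole-library fit (median -3.25), 61 of 158 C/D box, 40 of 88 H/ACA box and 1 of 3 small Cajal body RNAs among them. C/D box RNAs, which guide ribose methylation, were 76.3 ± 2.75% of snoRNA counts in gradient 6_7 and 83.3 ± 1.65% in sEV, and H/ACA RNAs, which guide pseudouridylation, 17.5 ± 0.783% in gradient 6_7 and 14.3 ± 1.08% in sEV (SD, n = 4 and 3). U3 snoRNA, which acts in the first cleavages of pre-rRNA, was much lower in gradient 6_7. SNORD3A had 12.0, 10.7, 13.4 and 18.1 CPM in gradient 6_7, against 2115, 1112 and 892 CPM in sEV (log2 fold change -6.68 ± 0.95, adjusted p = 1.55e-09). Its copy SNORD3D (ENSG00000281000) had 5.95, 3.01, 9.93 and 9.35 CPM in gradient 6_7, against 2029.5, 1066 and 858 CPM in sEV (log2 fold change -7.60 ± 1.00, adjusted p = 4.27e-11). SNORA21, a guide of 28S rRNA pseudouridylation, had 2.13, 14.3, 22.5 and 3.63 CPM in gradient 6_7, against 1328, 803 and 564 CPM in sEV (log2 fold change -6.31 ± 0.98, adjusted p = 4.42e-08). All 3 held with each library left out.
Within the class 4 snoRNAs were higher (SNORD83A and ENSG00000201660, with SNORA8 and ENSG00000207410 chosen after their values were seen) and 6 lower (median 0.88, but -0.66 with TMM within the class). SNORD3A fell there (log2 fold change -2.32 ± 0.61, adjusted p = 0.00943), which ended without sEV A (adjusted p = 0.057) or gradient 6_7 B (0.059). SNORD83A, at 97.8, 39.1, 58.6 and 38.5 CPM in gradient 6_7 and 81.9, 121 and 79.6 CPM in sEV with overlap, rose as a share (within-class log2 fold change 3.61 ± 0.92, adjusted p = 0.00733), a call that ended without sEV A, B or C. SNORD26 had 2.13, 96.7, 63.6 and 40.1 CPM in gradient 6_7, against 417, 1590.1 and 1024 CPM in sEV (log2 fold change -3.95 ± 0.88, adjusted p = 0.000459), a call that ended with these 2 groups fitted alone (adjusted p = 0.13). SNORD33 had 45.7, 346, 69.9 and 54.1 CPM in gradient 6_7, with B far above the others, and 1485, 555 and 588 CPM in sEV (log2 fold change -2.36 ± 0.76, adjusted p = 0.0321), which ended without sEV A or gradient 6_7 A, C or D, with the 2 groups alone or with RLE scaling. The single snoRNA entry higher in both fits, ENSG00000201660 on the X chromosome, had 45.7, 10.0, 30.3 and 12.4 CPM in gradient 6_7 and 2 counts in all of sEV (chosen after its values were seen).

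Of 17 rRNA entries 2 were called, mitochondrial 16S rRNA and a 5.8S entry (log2 fold change -3.89 ± 0.93, adjusted p = 0.00146), both lower in gradient 6_7. The 28S entry had 51753, 546756, 232488 and 107550 CPM in gradient 6_7 and 207836, 162924 and 124026 CPM in sEV (log2 fold change 0.88 ± 0.65, adjusted p = 0.355), with gradient 6_7 B the highest and A the lowest of the 7 libraries. The 18S entry had 19373, 7947, 20318 and 18292 CPM in gradient 6_7, against 4223, 6649 and 7144 CPM in sEV, higher in each gradient library and not past the threshold (adjusted p = 0.205). The 5S entry had 4211, 1986, 4645 and 4412 CPM in gradient 6_7, against 2128, 17260.3 and 9545 CPM in sEV (adjusted p = 0.233). Mitochondrial 16S rRNA fell to 54.2, 32.2, 76.1 and 72.0 CPM in gradient 6_7, against 567, 2103 and 1213 CPM in sEV (log2 fold change -4.46 ± 0.88, adjusted p = 4.08e-05; within-class log2 fold change -4.16 ± 0.99, adjusted p = 0.00923). The within-class call ended with TMM within the class (adjusted p = 0.055).
Mitochondrial tRNAs, which serve the organelle's own ribosomes, were lower too. Of 21 tested, 0 were higher and 14 lower in the whole-library fit (median -4.14), 9 of 13 encoded on the heavy strand and 5 of 8 on the light strand. Within the class 1 fell, mt-TD, with 0 counts in gradient 6_7 and 25.1, 10.6 and 8.998 CPM in sEV. That call ended without sEV A (adjusted p = 0.324) or gradient 6_7 C (0.0605) or D (0.13). mt-TV had 7.44, 10.6, 12.4 and 17.1 CPM in gradient 6_7, against 25.7, 659 and 506 CPM in sEV (log2 fold change -4.89 ± 0.97, adjusted p = 5.33e-05). mt-TS2 had 8.50, 2.11, 12.4 and 6.48 CPM in gradient 6_7, against 37.4, 129 and 139.8 CPM in sEV (log2 fold change -3.88 ± 0.90, adjusted p = 0.000989). On the light strand mt-TE had 7.44, 6.34, 3.10 and 13.99 CPM in gradient 6_7, against 30.3, 133 and 139 CPM in sEV (log2 fold change -3.55 ± 0.87, adjusted p = 0.00216). sEV A was the lowest sEV library for each of these 3, close to the gradient range. mt-TH, the highest on average, had 95.7, 29.6, 172 and 156 CPM in gradient 6_7 and 137, 415 and 307 CPM in sEV and did not pass (adjusted p = 0.266).

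**Figure D5:**
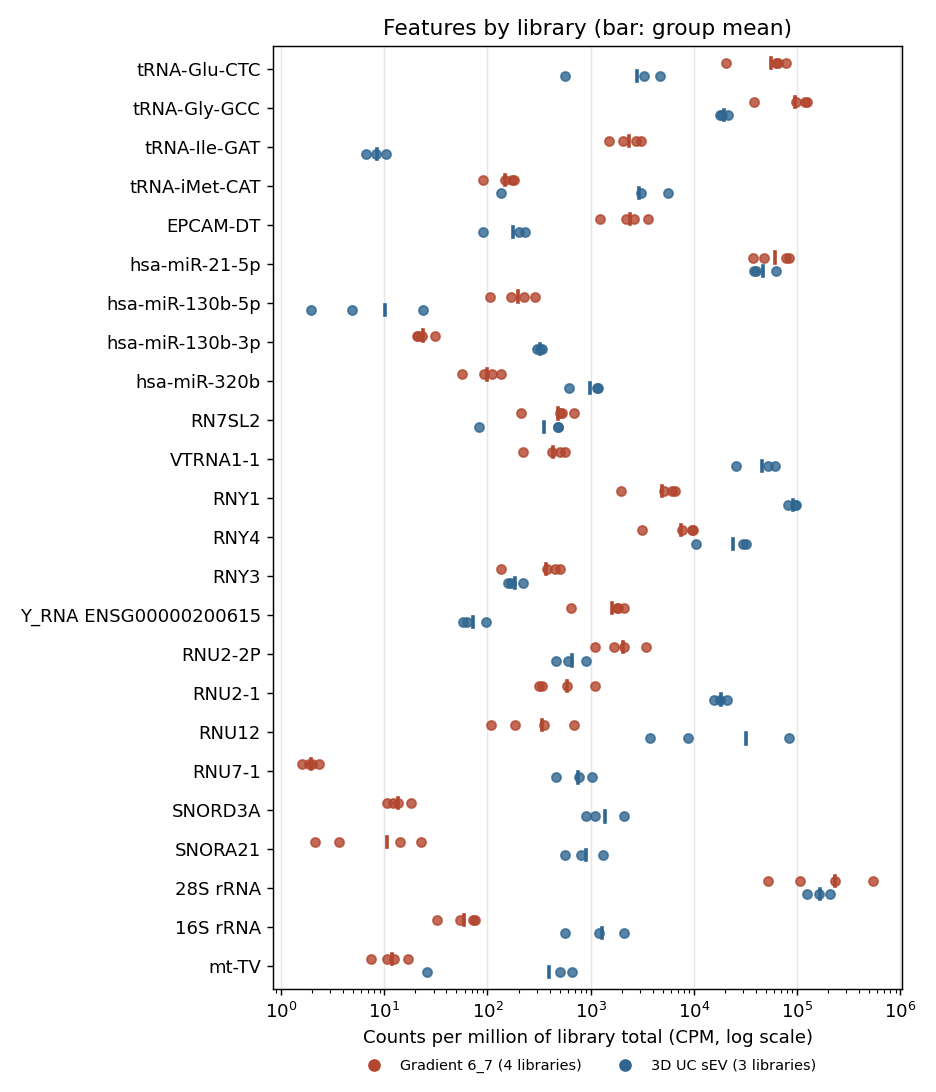
Levels of named features in CPM (log scale) in gradient 6_7 (4 libraries, red) and 3D UC sEV (3 libraries, blue), with bars at group means. tRNA-Ile-GAT, tRNA-Glu-CTC, EPCAM-DT, miR-130b-5p and Y_RNA ENSG00000200615 lie to the right in gradient 6_7, VTRNA1-1, RNY1, RNU2-1, RNU7-1, SNORD3A and SNORA21 lie to the left, and miR-21-5p, RN7SL2, RNY3, 28S rRNA and tRNA-iMet-CAT overlap.

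lncRNA entries held most of the tested features and few calls. Of 4756 tested, 2 were higher and 99 lower in the whole-library fit (median -3.26, or -0.99 with bounds). EPCAM-DT, the divergent transcript of the epithelial adhesion gene EPCAM, and RBM33-DT (chosen after its values were seen) were the 2 that rose. EPCAM-DT had 2611, 1233, 3599.9 and 2189.8 CPM in gradient 6_7, against 90.4, 204 and 230.5 CPM in sEV (log2 fold change 3.74 ± 0.91, adjusted p = 0.00196), a call that ended with no filter on low counts (adjusted p = 0.14). Its share of lncRNA counts was 21.8 ± 4.04% in gradient 6_7 and 0.595 ± 0.220% in sEV (within-class log2 fold change 5.19 ± 0.78, adjusted p = 9.09e-08). Whether these counts come from the whole transcript or from a shorter RNA encoded inside it was not tested. The other 2 lncRNA entries with the highest mean counts hold a small RNA. ENSG00000286171 (GRCh38 chr7:148941483-148941638, + strand), which contains the RefSeq gene RNY5, had 7896, 2814, 8428 and 9309.9 CPM in gradient 6_7 and 5538, 39261 and 38016 CPM in sEV (log2 fold change -1.98 ± 0.73, adjusted p = 0.0714). ENSG00000259001, which contains RPPH1, the RNA of ribonuclease P, fell to 38.3, 26.96, 96.2 and 101 CPM in gradient 6_7, against 1492, 2108 and 1709.6 CPM in sEV (log2 fold change -4.79 ± 0.86, adjusted p = 3.79e-06; within-class log2 fold change -3.69 ± 0.63, adjusted p = 5.96e-06). SNHG1, a host of several C/D box snoRNA genes, fell to 28.7, 14.3, 10.9 and 28.5 CPM in gradient 6_7, against 260.3, 418 and 287 CPM in sEV (log2 fold change -3.95 ± 0.93, adjusted p = 0.00119). Its within-class call ended without sEV A or B or gradient 6_7 A, C or D.

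ERV entries are transcripts of retroviral repeats. In the whole-library fit, of 743 tested, 0 were higher and 78 lower (median -3.72, or -1.72 with bounds). By family type, 26 of 192 MER, 24 of 272 LTR, 13 of 48 MLT, 5 of 10 MST, 3 of 7 THE1, 5 of 158 HERV and 2 of 56 other entries were lower. Over all tested features 517 of 7009 (7.38%) were lower in that fit, a share that the HERV and other entries did not reach. HERV entries took 30.5, 23.7, 39.8 and 37.8% of ERV counts in gradient 6_7 A to D and 13.9, 15.2 and 14.8% in sEV A to C, without overlap. LTR7_HERVH, an entry of the HERVH family with the highest mean count, had 21.4, 13.002, 26.1 and 24.01 CPM in gradient 6_7 and 25.5, 47.4 and 39.9 CPM in sEV and did not pass (adjusted p = 0.533). HERVH_LTR7Y had 30.9, 13.8, 31.9 and 32.1 CPM in gradient 6_7, against 11.1, 9.48 and 9.38 CPM in sEV (within-class log2 fold change 3.70 ± 1.00, adjusted p = 0.0135), a call that ended without sEV B or C. THE1B had 3.19, 6.82, 4.66 and 6.66 CPM in gradient 6_7, against 43.3, 43.2 and 36.8 CPM in sEV (log2 fold change -2.77 ± 0.90, adjusted p = 0.0343). MSTA had 5.31, 9.14, 6.21 and 4.84 CPM in gradient 6_7, against 26.03, 56.6 and 47.7 CPM in sEV (log2 fold change -2.58 ± 0.89, adjusted p = 0.0492). Both calls ended with any of 6 libraries left out or with RLE scaling. MER31B had 0 counts in gradient 6_7 and 8.19, 9.04 and 13.5 CPM in sEV (adjusted p = 0.000181), and its within-class call (adjusted p = 0.0254) ended with any of 5 libraries left out.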

How the data were processed

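Small RNA was sequenced from 38 libraries of fractions of DiFi cell medium, and 7 of them are compared here. Per the submitters' processing notes, reads were handled with cutadapt 4.5, FastQC 0.12.1 and Bowtie 1.3.1 on GRCh38.p13; the counting tool and annotation are not given in the sources used here. The deposited values are expected counts, of which 6.71% were not whole (tolerance 1e-06), and they were rounded for the tests. The members and lists were chosen with earlier results of these data known.

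edgeR's filter (minimum count 10) was applied by group over the 38 libraries, so a feature could pass through groups not compared here. The features that passed were fitted with 11 group means (edgeR 4.0.16, R 4.3.3, quasi-likelihood test, TMM, 27 residual degrees of freedom). The p-values were adjusted by Benjamini-Hochberg over 7009 features. DESeq2 1.42.0 was run as an alternative. The biological coefficient of variation was 1.11. The within-class fit used class totals as offsets and left out a near-empty library of another group (26 residual degrees of freedom). Nothing states that the libraries came from separate cultures, so p-values measure the spread between these libraries, which may be technical. The table's name holds 2 project numbers, whose libraries are not told, so no within-batch value could be had. Floors (3 counts over a group) cover counting error only, whereas the SEs of fold changes come from the fits and include the spread between libraries.

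Class shares were compared by a two-sided exact permutation test, whose smallest p is 0.0286. Named features are, by rule, the 5 largest changes in each direction and, per class, the 3 with the highest mean CPM and the 2 largest within-class changes in each direction (50 CPM or more on average where higher, ranges apart, 1 per family), a fixed set of miRNAs and parent genes, and 2 to 4 members of each list that passed. Some other features were named after their values were seen, and this is said beside them. Sequences came from RefSeq (GRCh38.p14; 455 of 505 tested miRNAs matched), GENCODE 29 and the deposited table, and were aligned with Biopython 1.88. On simulated counts of 7009 features, the whole-library fit recovered 5% of 100 features changed 16-fold and 33% of 100 changed 64-fold, with 1 unchanged feature called, and the within-class fit 22% and 40%, with 15 unchanged features called. Alternatives were library totals, RLE scaling, DESeq2, no filter, these 2 groups alone, a replicate block, rRNA left out, TMM within classes and leaving out libraries.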

Additional observations from a re-analysis of the deposited data

Results flagged for a closer look

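In 23 of 230 groups of 4 gradient 6_7 values that were screened, 1 library stood far from the other 3, with a gap to the nearest of them that, as a share of the group's range, was above Dixon's critical value. Chance flags about 1 in 20 such groups, and the values of a library are not independent of each other. The measures below give that gap over the range.

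Gradient 6_7 B, the library richest in rRNA, was the one apart in 18 of the 23. Its shares of the library were low for Y RNA (gap 0.830, share 1.52%), misc_RNA (0.911, 0.101%) and lncRNA (0.834, 0.523%), and high for snRNA (0.867, 1.41%). It had the highest level of RNU2-68P (0.994, 16.6 CPM) and SNORD33 (0.919, 346 CPM) and the lowest of 18S rRNA (0.836, 7947 CPM), 5S rRNA (0.837, 1986 CPM), HERVH_LTR7Y (0.935, 13.8 CPM) and tRNA-Asn-GTT (0.915, 69.8 CPM). Within their classes it had the highest share of miR-1246 (0.861, 23.7%), SNORD33 (0.940, 30.1%), Telomerase-vert, the telomerase RNA entry (0.911, 1.47%), MSTA (0.865, 2.95%) and mt-TV (0.857, 18.02%). It had the lowest share of let-7a-5p (0.856, 2.44%), miR-92a-3p (0.932, 2.78%) and miR-192-5p (0.902, 4.45%).

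Gradient 6_7 A was apart for Y_RNA ENSG00000199409 (gap 0.842, 237 CPM) and for a low tRNA-Asp-GTC share of tRNA counts (0.839, 11.3%). Gradient 6_7 C was apart for a low RNY4P18 share of Y RNA counts (0.844, 0.463%) and a high RNU6ATAC level (0.916, 5.98 CPM) and share of snRNA counts (0.870, 0.112%).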

How the results depend on the processing

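The whole-library count of 540 became 979 with these 2 groups fitted alone, 867 with DESeq2 on the same 7 libraries, 228 with RLE scaling (a near-empty library left out) and 990 with no filter on low counts, and 272 to 476 with a library left out. The within-class count of 235 became 520 with the 2 groups alone, 716 with TMM within each class on the 7 libraries, 127 with no filter, 150 without sEV A and gradient 6_7 B (chosen after seeing the data), and 95 to 188 with a library left out. The causes were not tested. The replicate letters do not pair the samples by the labels, and the correlations of same-letter deviations were -0.00928, 0.0407 and 0.0233, so no pairing was assumed. With the replicate letter as a block, these 2 groups alone gave 465 calls, against 979 without the block, and 326 within classes, against 520 without it. The 6 class shares that passed kept their sign under the alternatives run.

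With TMM within each class on the 7 libraries, 15 of 110 named within-class log2 fold changes took the other sign. The 6 of them that passed in either setting turned negative: RNY4 (-2.44), RN7SL2 (-0.18), RN7SL1 (-0.43), Telomerase-vert (-3.48), RNY4P10 (-3.29) and VTRNA1-3 (-3.71). Of 220 named results followed, 120 were called, and 44 of these lost their call or turned under at least 1 alternative. With no filter on low counts the whole-library calls of miR-130b-5p, miR-23b-5p, RNY4P18, EPCAM-DT, ENSG00000201660 and ENSG00000252485 ended, as did the within-class calls of miR-23b-5p, mt-TD, SNORD3A, SNORD83A, SNHG1, HERVH_LTR7Y, MER31B, RNU2-1, ENSG00000207292, tRNA-Val-AAC and tRNA-Val-CAC. Of 7009 tested features, 4198 had no count in 1 or both of the groups.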
